A study of Homo sapiens with 24 samples.

Results

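The genes described here encode the factors that start and extend protein chains on human ribosomes: 66 of the 23354 genes counted, chosen as the symbols that begin with EIF or EEF and a digit. Antisense and read-through names with a hyphen (3) and pseudogene names ending in P and digits (2) were left out of the 71 symbols with that start. By role, 41 members are initiation factors, 9 are elongation factors (the eIF5A proteins, now placed in elongation, included), 5 are kinases, 4 are repressors and 7 act elsewhere (a splicing-linked helicase, the synthetase-complex protein EEF1E1, EIF1AD and 4 lysine methyltransferases). The libraries were made from 2 established human acute myeloid leukemia lines, MV4-11 and KG-1a, either untreated or grown for 8 or 24 h with 1 µM 8-chloro-adenosine (8CA) or 1 µM 8-amino-adenosine (8AA). The analogs are adenosine with a chlorine or an amino group on the base. Each of the 12 combinations of line, treatment and hour had 2 libraries, A and B, so that 24 libraries were read. The untreated groups carry an hour in their names like the treated ones. Every library came from total RNA of 1 line, and the labels do not say that A and B were separate cultures, so the p-values below measure only the spread between these libraries.

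Initiation begins when eIF2 carries the initiator methionyl-tRNA to the small ribosomal subunit, held by eIF1, eIF1A, eIF3 and eIF5, while the eIF4F complex (the cap-binding eIF4E, the scaffold eIF4G and the helicase eIF4A) brings in the mRNA. The guanine exchange factor eIF2B reloads eIF2 with GTP, and the EIF2AK kinases stop that step by phosphorylating eIF2 alpha under stress. The 4E-BPs, encoded by EIF4EBP1 to EIF4EBP3, hold eIF4E away from eIF4G until mTORC1 phosphorylates them. Elongation is driven by eEF1A, which delivers aminoacyl-tRNA, its exchange complex eEF1B, and eEF2, which moves the ribosome and is inhibited by the kinase EEF2K. Leukemia cells are known to depend on a high rate of translation.

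Library totals ran from 18633963 to 24520078 counts, and no library differed from its partner by less than sampling noise. The 2 KG-1a libraries with 8AA at 24 h stood apart: their chi-square per degree of freedom was 12.3, against 1.43 to 5.2 in the other 11 groups, and their TMM scaling factors, 1.0925 and 1.1093, were the highest of all. FLT3, the receptor gene that MV4-11 is known for, averaged 465.8 ± 38 CPM (counts scaled to a common library total; SD, n = 4) in untreated MV4-11 and 0.5501 in KG-1a, and CD34 averaged 390.2 ± 25.1 CPM in KG-1a and 0.04796 in MV4-11. Of the members, 62 passed the expression filter in each line. EIF3C (0 to 6 counts), EIF4E1B (0 counts in every library) and EIF4EBP3 (0 to 9 counts) passed in neither line. Levels of EIF3C with its near-identical copy EIF3CL (1 to 26 counts), of EIF5AL1 with EIF5A, and of EEF1A1 with its many pseudogenes depend on how shared reads were counted and are uncertain. Bulk counts cannot tell a change in RNA per cell from a change in which cells remained. Every scaling used gives a level relative to the other genes of a library. Rises and falls below are therefore relative, and a change in total RNA per cell would not be seen.

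In untreated cells, 4 elongation factor genes, EEF1A1, EEF2, EEF1G and EEF1B2, stood above every initiation factor among the members per length. EIF4A1, a gene of the eIF4A helicase, is not among the members, so these rankings leave it out. The most abundant member in both lines was EEF1A1, at 2545 ± 73.15 RPKM in MV4-11 and 1237 ± 65.85 RPKM in KG-1a (SD, n = 4). EEF2 followed at 2220 ± 123.5 RPKM in MV4-11, where it was well above EEF1G at 1227 ± 4.272 RPKM. In KG-1a the order was the other way, with EEF1G at 1042 ± 64.23 RPKM and EEF2 at 887.4 ± 26.69 RPKM, and the 4 libraries of each gene did not overlap. Among the initiation factors, EIF4G2, a scaffold that lacks the eIF4E-binding part, led in KG-1a with 364.3 ± 28.21 RPKM, and EIF3E led in MV4-11 with 292.9 ± 3.416 RPKM. Among the lowest, EIF5A2 stood at 1.153 ± 0.1084 RPKM in MV4-11 and 0.5191 ± 0.1338 RPKM in KG-1a.

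**Figure D1:**
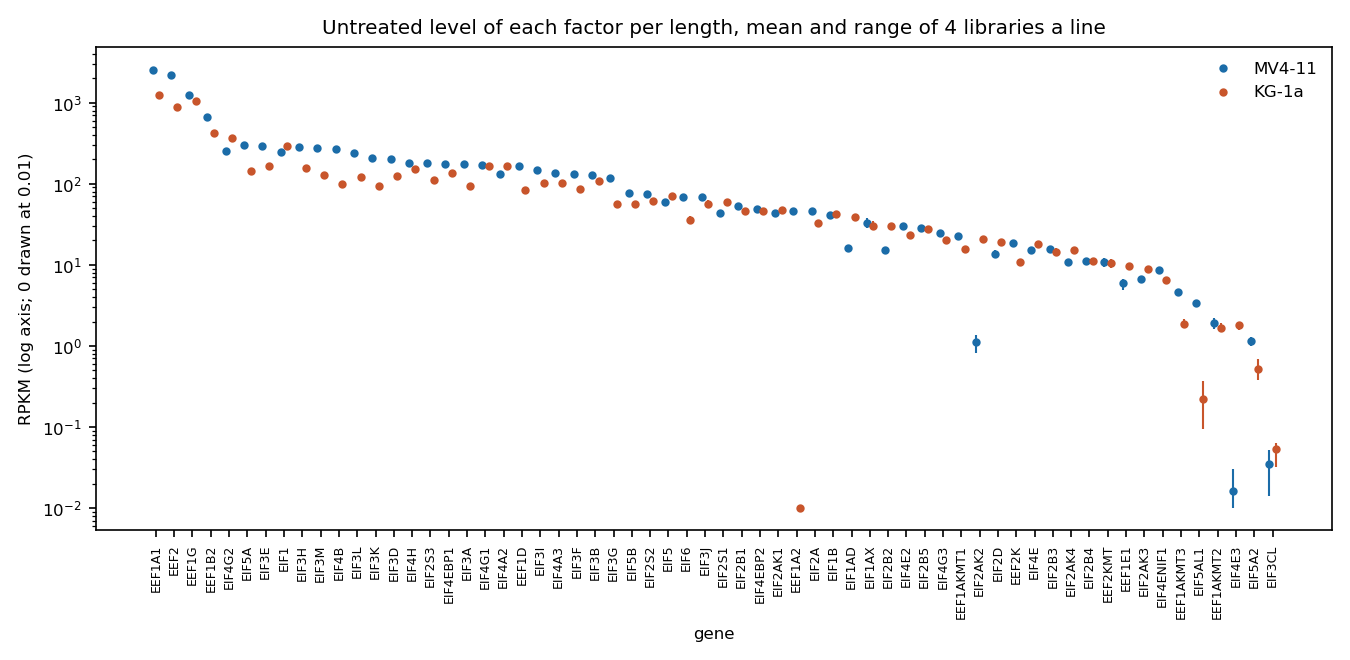
Level of each plotted member in untreated cells in RPKM on a log axis, with the mean (point) and range (line) of 4 libraries in MV4-11 (blue) and KG-1a (orange); a level of 0 is drawn at 0.01. EEF1A1 tops both lines, and EEF1A2, EIF2AK2, EIF4E3 and EIF5AL1 show the widest gaps between the lines.

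Before any drug, the lines differed in members about as often as in all genes. In untreated MV4-11, 38 members of 63 were called higher than in KG-1a and 16 lower (background over all 14055 genes tested: 43.1% higher and 44.3% lower), with a median log2 difference of 0.283 against -0.0103 over all genes. EEF1A2, the eEF1A isoform known from muscle and neurons, gave 1474 to 2234 counts in the MV4-11 libraries and 0 counts in 12 of 12 KG-1a libraries. Against a floor of 3 counts per library it was at least 581-fold higher in MV4-11. EIF4E3, an eIF4E relative, had the reverse pattern, with 203 to 325 counts in KG-1a and 0 to 4 in MV4-11, which put it at least 78.5-fold higher in KG-1a. EIF2AK2 encodes PKR, the kinase activated by double-stranded RNA. Its untreated level was 90.54 ± 3.07 CPM in KG-1a and 4.854 ± 1.12 CPM in MV4-11 (log2 difference -4.24, SE 0.0629, edgeR adjusted p = 2.83e-26). EIF4B, which stimulates the eIF4A helicase, was higher in MV4-11 by 1.42 on the log2 scale (SE 0.0307, edgeR adjusted p = 5.57e-23), and EEF2 by 1.32. EIF1AD was lower in MV4-11 (-1.25, SE 0.0434, edgeR adjusted p = 1.06e-18).

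At 8 h, the changes were nearly all decreases. With 8CA, 14 of 62 members were called lower in MV4-11 and 0 higher (background 5.77% lower and 4.58% higher). At an unadjusted p under 0.05 the counts were 22 and 2, and DESeq2 called 14 and 0. Scaling by library size alone gave 12 and 2 (background with that scaling 4.16% and 6.7%). The count of 14 fell to 4 without untreated library A, to 8 without 8CA library A and to 6 without 8CA library B. With 8AA in MV4-11, 22 were lower and 0 higher (background 15.6% and 13.6%). Unadjusted, the counts were 25 and 5, and with DESeq2 19 and 0. Library size alone gave 21 and 7 (background with that scaling 11.8% and 18.7%). Without 8AA library A, 3 were called higher. In KG-1a, 8CA moved 1 member, EIF4G3, and 0 were higher (background 0.181% lower and 0.7% higher; 7 and 5 unadjusted; DESeq2 2 and 0). With 8AA in KG-1a, 27 were lower and 3 higher (background 18% and 16.7%). Library size alone gave 19 and 7 there (background with that scaling 15.1% and 21%). Member medians were -0.0503 and -0.0708 with 8CA and 8AA in MV4-11 and -0.0153 and -0.112 in KG-1a. Over all genes they were 0.00521, 0.00573, -0.00468 and 0.00721. Both drugs are read against the same untreated libraries of each line and hour, so their values are given side by side.

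EIF4G3, the third eIF4G scaffold gene, was called lower at 8 h with both drugs in both lines. In KG-1a at 8 h it stood at 137 and 143 CPM untreated, 121.4 and 120.9 CPM with 8CA, and 85.01 and 80.39 CPM with 8AA. The 3 groups did not overlap, and the log2 changes were -0.21 with 8CA (SE 0.046, edgeR adjusted p = 0.0472) and -0.75 with 8AA (SE 0.0467, edgeR adjusted p = 2.64e-08). The 8CA call was lost without any of the 4 libraries behind it. In MV4-11 at 8 h, EIF4G3 went from 159.5 and 161.3 CPM to 140.8 and 142.3 CPM with 8CA and to 119.5 and 119.3 CPM with 8AA.

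EEF2KMT, which encodes the lysine methyltransferase of eEF2, also fell within 8 h. Its MV4-11 levels were 26.85 and 29.09 CPM untreated, 20.26 and 19.76 CPM with 8CA, and 17.72 and 19.07 CPM with 8AA (log2 changes -0.49 and -0.63, edgeR adjusted p = 0.00253 and 7.11e-05). KG-1a went from 27.59 and 26.96 CPM to 13.08 and 15.54 CPM with 8AA, 0.529 of the untreated level (SE of the log2 change 0.0868, edgeR adjusted p = 1.69e-06). All treated libraries lay below the untreated ones of their line. EIF5A2, the second eIF5A gene, had 7.061 and 6.418 CPM untreated, 4.585 and 3.859 CPM with 8CA, and 5.07 and 4.756 CPM with 8AA in MV4-11 at 8 h. Its calls (-0.68 and -0.49) were lost without untreated library A or without library B of the drug group. EIF1B, a close relative of the start-codon factor EIF1, was the strongest of the 3 that rose with 8AA in KG-1a: 42.68 and 41.38 CPM untreated against 56.34 and 53.95 CPM (1.32-fold, SE 0.0594 on the log2 scale, edgeR adjusted p = 9.58e-05). The other two were EIF3F (0.23), whose call was lost without untreated library B, and EIF2D (0.32).

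By 24 h, the drugs differed in how they moved the factors. With 8CA, 21 members were lower and 15 higher of 62 in MV4-11 (33.9% and 24.2%, background 22.7% and 21.2%). In KG-1a, 24 were lower and 17 higher (38.7% and 27.4%, background 24% and 23.4%). The shares higher with 8CA were thus near the background. With 8AA, the calls were mostly decreases: 22 lower and 1 higher in MV4-11 (background 15.3% and 13.9%), and 38 lower and 5 higher in KG-1a (background 26.6% and 25.4%). Member medians were -0.0772 and -0.0666 with 8CA in MV4-11 and KG-1a, and -0.08 and -0.271 with 8AA, while the medians of all genes lay between 0.00216 and 0.0134. The split depended on the scaling. Library size alone gave 17 lower and 21 higher for 8CA in MV4-11, 17 and 9 for 8AA in MV4-11, and 32 and 8 for 8AA in KG-1a. Upper-quartile scaling gave 17 and 20 (19.5% and 24.9%), 20 and 4 (11.8% and 17.5%), and 34 and 8 (21% and 33.2%) in the same order. The shares of all genes thus moved with the scaling too. The 15 increases with 8CA in MV4-11 became 8 without untreated library B and 9 without 8CA library B. In KG-1a with 8AA, the 38 decreases became 45 without 8AA library A and 36 without 8AA library B, and the 5 increases became 3 without untreated library A and 8 without 8AA library B. The call of EEF1AKMT3 (0.26), the 1 increase with 8AA in MV4-11, was lost without any of its 4 libraries.

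**Figure D2:**
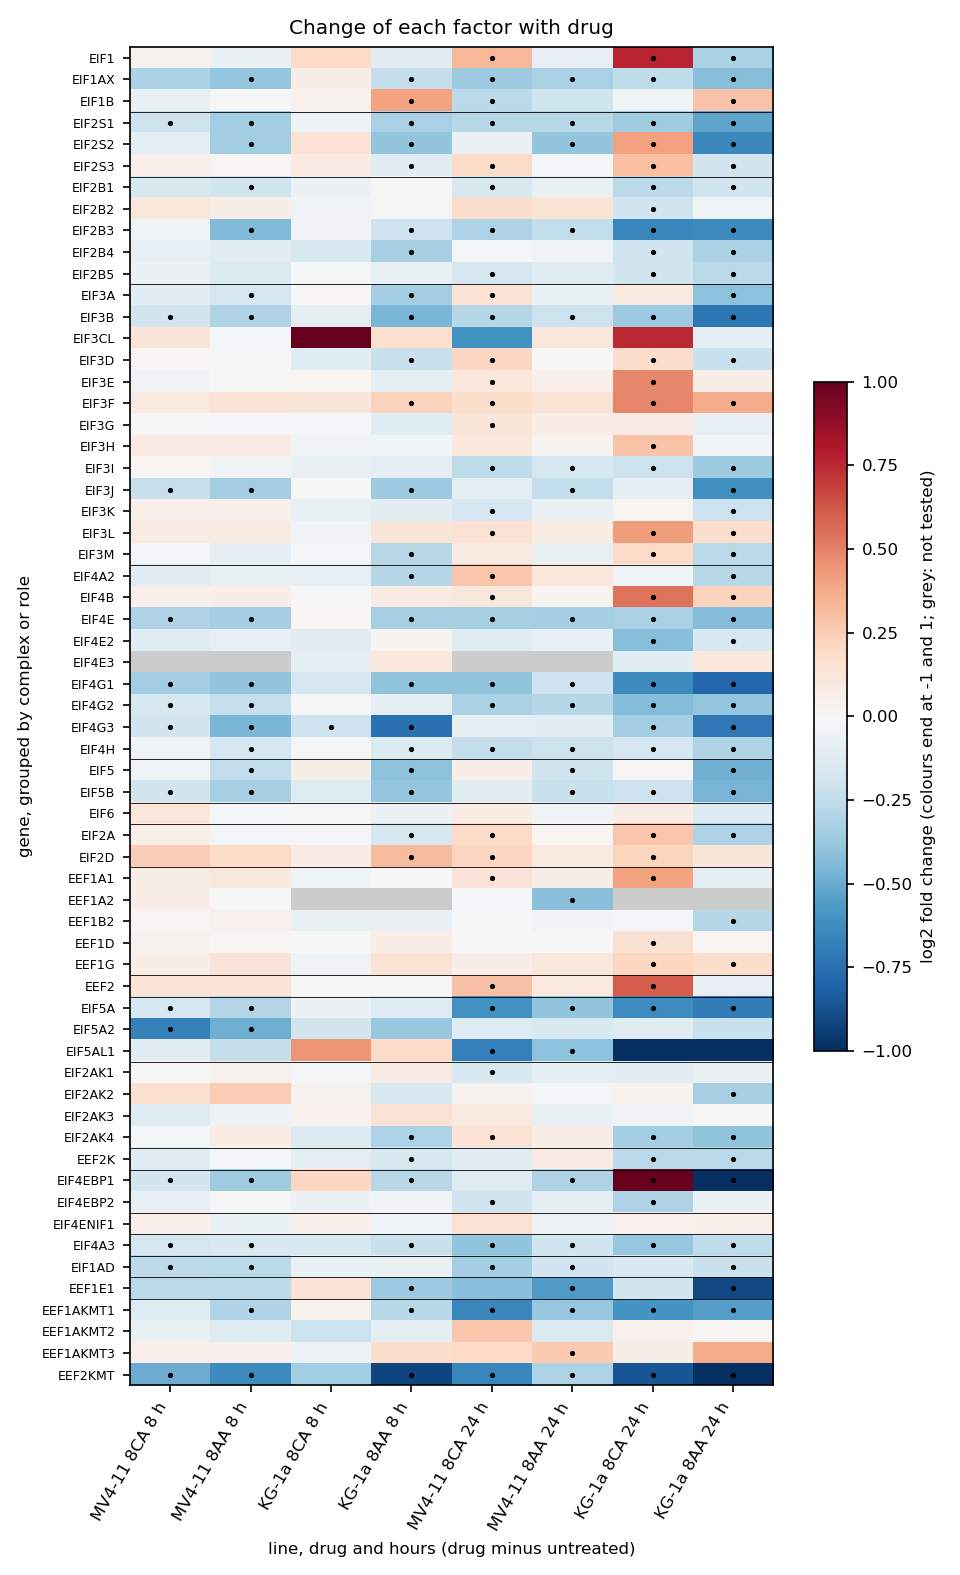
Log2 change of each tested member (rows, grouped by complex or role) against untreated cells in the 8 combinations of line, drug and hour (columns), with EIF1AY not drawn; red is higher, blue lower, grey not tested, and a dot marks an edgeR adjusted p under 0.05. Blue fills most of the KG-1a 8AA column at 24 h (38 members lower), while the KG-1a 8CA column at 24 h mixes 24 lower and 17 higher.

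At 24 h, 13 members were called lower with both drugs in both lines (the share of all genes lower in all 4 was not counted). They were the eIF4F genes EIF4E and EIF4G1, the related scaffold EIF4G2, the helicase helper EIF4H, the eIF2 and eIF2B genes EIF2S1 and EIF2B3, the eIF3 genes EIF3B and EIF3I, EIF1AX, EIF5A, the exon-junction helicase EIF4A3, and the methyltransferase genes EEF1AKMT1 and EEF2KMT.
For 8 of them, all 4 calls held without any single library. The KG-1a 8CA calls of EIF3I and EIF4H were lost without 8CA library B. In MV4-11 with 8AA, EIF3I lost its call without 8AA library A or untreated library B, and EIF2B3 without 8AA library A or untreated library A, with DESeq2 or with library size alone. EIF1AX kept only its KG-1a 8AA call: the others were lost without 8CA library B or untreated library B (MV4-11 8CA), either 8AA library or untreated library B (MV4-11 8AA), and either 8CA library or untreated library A (KG-1a 8CA). DESeq2 took away both MV4-11 calls of EIF1AX, library size alone its MV4-11 8AA and KG-1a 8CA calls, and upper-quartile scaling its MV4-11 8AA call. The exception for EEF2KMT is given with its values below. In single comparisons at 24 h, 22.7% and 15.3% of all genes were lower with 8CA and 8AA in MV4-11, and 24% and 26.6% in KG-1a. Both drugs share the untreated libraries of a line, so their calls are not independent.

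EIF5A (table position chr17:7210318-7215782, plus strand), whose hypusine-bearing product helps ribosomes through difficult peptide bonds, fell with both drugs in both lines. MV4-11 libraries at 24 h gave 710.7 and 718.2 CPM untreated, 467 and 486.5 CPM with 8CA, and 542 and 561.6 CPM with 8AA. KG-1a libraries gave 344.5 and 359.3 CPM untreated, 230 and 223.4 CPM with 8CA, and 235 and 198.9 CPM with 8AA. No treated library reached the untreated ones. Fractions of the untreated level were 0.658 and 0.762 with 8CA and 8AA in MV4-11 (edgeR adjusted p = 3.46e-08 and 8.8e-06) and 0.645 and 0.618 in KG-1a (edgeR adjusted p = 1.09e-06 and 2.55e-07). The change deepened between 8 and 24 h, by -0.43 with 8CA in MV4-11 (SE 0.0584, edgeR adjusted p = 0.000188) and by -0.58 and -0.57 with 8CA and 8AA in KG-1a (edgeR adjusted p = 0.000266 and 0.000509). The copy gene EIF5AL1 moved with it in MV4-11 at 24 h (-0.69 and -0.41), where reads of the pair may be shared.

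EIF4G1 (table position chr3:184032283-184053146, plus strand), the main eIF4F scaffold, fell in the same 4 comparisons. Its 24 h levels in MV4-11 were 1118 and 1063 CPM untreated, 816.1 and 854.5 CPM with 8CA, and 927.7 and 985.2 CPM with 8AA. In KG-1a they were 992.6 and 1033 CPM untreated, 652.8 and 647.6 CPM with 8CA, and 612.3 and 560.9 CPM with 8AA. The KG-1a levels with drug were 0.643 and 0.58 of untreated (edgeR adjusted p = 3.4e-08 and 2.77e-09), and the MV4-11 levels 0.756 and 0.865 (edgeR adjusted p = 5.51e-06 and 0.00299). The order of the drugs differed by line: EIF4G1 was higher with 8AA than with 8CA in MV4-11 (0.195 on the log2 scale, 95% interval 0.0978 to 0.292) and lower in KG-1a (-0.15, 95% interval -0.246 to -0.0525).

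EIF4E, the cap-binding subunit, was lower with each drug. At 24 h it read 82.12 and 88.74 CPM untreated, 70.9 and 66.72 CPM with 8CA, and 69.97 and 67.22 CPM with 8AA in MV4-11. KG-1a read 93.59 and 96.49, 77.92 and 73.22, and 70.48 and 69.88 CPM in the same order. Its log2 changes were -0.33 and -0.34 in MV4-11 (edgeR adjusted p = 0.00117 and 0.00204) and -0.33 and -0.44 in KG-1a (edgeR adjusted p = 8.72e-05 and 4e-06), where the drugs differed by -0.11 (SE 0.0519, edgeR adjusted p = 0.108). Across eIF4F and its helpers (EIF4A1 is not among the members), 4 of 8 tested were lower with each drug in MV4-11, and 6 and 7 of 9 in KG-1a. The MV4-11 share was 50% with each drug (background 22.7% with 8CA and 15.3% with 8AA). The KG-1a shares were 66.7% and 77.8% (background 24% and 26.6%). The members that rose were EIF4A2 (0.27) and EIF4B (0.12) with 8CA in MV4-11, and EIF4B alone in KG-1a (0.55 with 8CA and 0.23 with 8AA).

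The 4E-BP gene EIF4EBP1 had the widest gap between the drugs. In KG-1a at 24 h it stood at 114.5 and 120 CPM untreated, 289.7 and 266.8 CPM with 8CA, and 56.96 and 46.57 CPM with 8AA. The 3 groups were far apart, with 8CA at 2.38-fold (SE 0.072 on the log2 scale, edgeR adjusted p = 3.35e-09) and 8AA at 0.443 of untreated (SE 0.0776, edgeR adjusted p = 1.02e-08). At 8 h the KG-1a levels were 119.2 and 115.3 CPM untreated, 138 and 132 CPM with 8CA (0.21, SE 0.0732, edgeR adjusted p = 0.235), and 100.2 and 91.91 CPM with 8AA (-0.28; lost without 8AA library B or untreated library A). MV4-11 showed no rise: at 24 h the levels were 140.3 and 145.6 CPM untreated, 126.5 and 139.1 CPM with 8CA (-0.13, SE 0.052, edgeR adjusted p = 0.0593), and 113.6 and 120.2 CPM with 8AA (-0.31, SE 0.0526, edgeR adjusted p = 0.000416). The second 4E-BP gene, EIF4EBP2, did not follow it. Its KG-1a levels at 24 h were 339.8 and 342.5 CPM untreated, 276.8 and 273.3 CPM with 8CA (-0.31), and 326.7 and 328.4 CPM with 8AA (-0.06). EIF4ENIF1, whose product carries eIF4E into the nucleus and to P-bodies, was called in none of the 8 comparisons and ranged from 28.74 to 48.27 CPM over the 24 libraries.

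**Figure D3:**
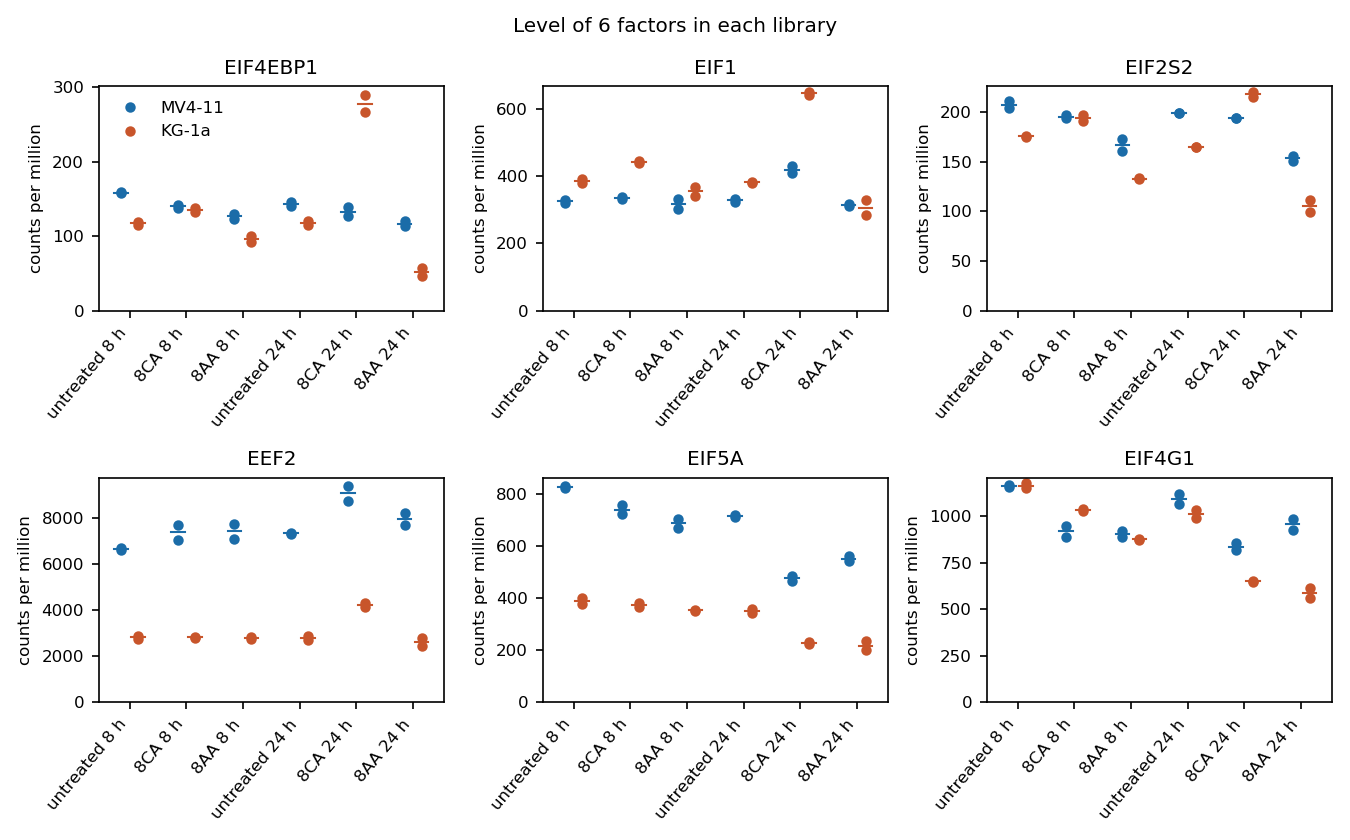
Level in CPM of 6 members in each library (points; bars are the mean of 2) across untreated, 8CA and 8AA groups at 8 and 24 h in MV4-11 (blue) and KG-1a (orange). In KG-1a at 24 h, EIF4EBP1, EIF1 and EIF2S2 lie above untreated with 8CA and below it with 8AA, while EIF5A and EIF4G1 lie below it with both drugs.

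EIF4EBP1 was 1 of 7 members called in opposite directions with the 2 drugs, all in KG-1a at 24 h: higher with 8CA and lower with 8AA. The others were EIF1, EIF2S2, EIF2S3, EIF2A, EIF3D and EIF3M, which act in start-codon selection, Met-tRNA delivery and the eIF3 scaffold. The share of all genes called in opposite directions was not counted, so the 7 cannot be set against a background. In single comparisons in KG-1a at 24 h, 23.4% of all genes were higher and 24% lower with 8CA. With 8AA, 25.4% were higher and 26.6% lower. EIF1 stood at 378.6 and 383.9 CPM untreated, 649.7 and 641.8 CPM with 8CA (1.7-fold, SE 0.0564 on the log2 scale, edgeR adjusted p = 4.74e-08), and 328 and 284.8 CPM with 8AA (-0.31, SE 0.0568, edgeR adjusted p = 0.000258). In MV4-11 at 24 h, EIF1 also rose with 8CA, from 324.2 and 331.4 CPM to 408 and 429 CPM (1.26-fold, edgeR adjusted p = 3.56e-05), while with 8AA it read 310.8 and 318.1 CPM (-0.08). EIF2S2, the beta subunit of eIF2, read 164.5 and 164.3 CPM untreated, 220.1 and 215.3 CPM with 8CA (0.41, edgeR adjusted p = 1.04e-05), and 111.1 and 98.95 CPM with 8AA (-0.64, edgeR adjusted p = 8.05e-08) in KG-1a. These 3 genes kept both calls without any single library. EIF2A (0.28 with 8CA and -0.31 with 8AA) and EIF3M (0.19 and -0.27) moved less. For EIF2S3 (0.30 and -0.18), scaling by library size alone took away the 8AA call. For EIF3D (0.18 and -0.22), library size alone, upper-quartile scaling or leaving out 8AA library B took away the 8AA call, and leaving out any of 4 libraries took away the 8CA call.

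The 3 subunits of eIF2 did not move as a unit. In KG-1a at 24 h, all 3 were lower with 8AA, whereas with 8CA the alpha subunit gene EIF2S1 was lower and EIF2S2 and EIF2S3 higher. EIF2S1 read 239 and 225.9 CPM untreated, 178.1 and 185.1 CPM with 8CA (-0.35, edgeR adjusted p = 1.33e-05), and 159.4 and 162.6 CPM with 8AA (-0.53, edgeR adjusted p = 1.48e-07). In MV4-11 it read 182.4 and 175.9 CPM untreated and 149.3 to 151.2 CPM with either drug (-0.27 with each; difference between the drugs 0, 95% interval -0.101 to 0.101). The eIF2B genes, whose product reloads eIF2, were lower in 5 of 5 cases with 8CA and in 4 of 5 with 8AA in KG-1a (medians -0.202 and -0.273). In MV4-11 they were lower in 3 and 1 of 5 (medians -0.155 and -0.071). Of all genes, 24% and 26.6% were lower in KG-1a, and 22.7% and 15.3% in MV4-11. The MV4-11 share with 8AA (20%) is near that background. EIF2B3, the gamma subunit gene, changed most in KG-1a, from 28.89 and 28.7 CPM to 18.83 and 17.65 CPM with 8CA and 19.6 and 17.35 CPM with 8AA. Both drugs brought it to about 0.64 of its untreated level (0.635 and 0.644), and the drugs differed by 0.02 on the log2 scale (95% interval -0.155 to 0.196).

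Of the eIF2 kinases, EIF2AK4 was the one called most often. It encodes GCN2, which senses uncharged tRNA. KG-1a levels at 24 h were 131.1 and 129.9 CPM untreated, 103.2 and 102.2 CPM with 8CA, and 98.96 and 98.95 CPM with 8AA (-0.34 and -0.40, edgeR adjusted p = 1.05e-05 and 1.56e-06). In MV4-11 it read 103.1 and 95.8 CPM untreated, 111.6 and 111.7 CPM with 8CA (0.15, edgeR adjusted p = 0.0455, lost without 8CA library A or B or untreated library B), and 101.7 and 109.3 CPM with 8AA. The lines differed in this change with 8CA at 24 h by 0.51 (SE 0.072, edgeR adjusted p = 3.63e-05). EIF2AK3, which encodes the endoplasmic reticulum kinase PERK, was called in no comparison with untreated cells and stayed between 26.73 and 36.47 CPM in MV4-11 and between 40.39 and 45.72 CPM in KG-1a. EIF2AK2 fell in KG-1a with 8AA at 24 h, from 90.49 and 86.31 CPM to 65.68 and 75.03 CPM (-0.33, edgeR adjusted p = 0.000401). EIF2AK1, the heme-regulated kinase gene, was called once, with 8CA in MV4-11 at 24 h (-0.15), a call lost with library size or upper-quartile scaling and without 8CA library A or untreated library A. EEF2K, which shuts down eEF2, was lower with both drugs in KG-1a at 24 h: 79.27 and 80.47 CPM untreated, 67.41 and 65.08 CPM with 8CA, and 65.52 and 66.61 CPM with 8AA (-0.27 with each). In MV4-11 it read 135.5 and 132.9 CPM untreated, 125 and 128 CPM with 8CA and 149 and 139 CPM with 8AA, with neither called.

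The 14 eIF3 genes encode the scaffold that holds the small subunit open for mRNA, and 13 were tested. With 8CA at 24 h, 3 were lower and 6 higher in MV4-11 and 2 lower and 6 higher in KG-1a (medians 0.108 and 0.179). The shares lower, 23.1% and 15.4%, were near or below those of all genes (22.7% and 24%). The share higher was 46.2% in each line (background 21.2% and 23.4%). With 8AA, 3 were lower in MV4-11 and 7 lower and 2 higher in KG-1a (medians 0.007 and -0.212). The shares lower were 23.1% and 53.8% (background 15.3% and 26.6%), and 15.4% were higher in KG-1a (background 25.4%). EIF3B was lower in all 4 comparisons at 24 h and reached 274.8 and 235.6 CPM with 8AA in KG-1a, against 414.7 and 428.9 CPM untreated (0.606 of untreated, edgeR adjusted p = 7.47e-08). EIF3F went the other way in KG-1a, from 146.6 and 147.1 CPM untreated to 209.3 and 201.2 CPM with 8CA and 201.7 and 178.5 CPM with 8AA (0.49 and 0.37, edgeR adjusted p = 5.17e-06 and 4.78e-05). EIF3L did the same there (0.42 and 0.17). EIF6, which keeps the large subunit apart, was called in no comparison with untreated cells. EIF5 and EIF5B, which act at GTP hydrolysis and subunit joining, were both lower with 8AA at 24 h in MV4-11 (-0.20 and -0.22) and KG-1a (-0.48 and -0.46).

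The elongation factors EEF2 and EEF1A1 rose with 8CA. In KG-1a at 24 h, EEF2 (table position chr19:3976054-3985461, minus strand) stood at 2704 and 2852 CPM untreated, 4281 and 4139 CPM with 8CA, and 2788 and 2446 CPM with 8AA. The 8CA libraries lay above all others, at 1.52-fold (SE 0.0557 on the log2 scale, edgeR adjusted p = 5.31e-07), while the 8AA libraries overlapped the untreated ones (-0.08, edgeR adjusted p = 0.214). MV4-11 read 7282 and 7342 CPM untreated, 8731 and 9387 CPM with 8CA (1.22-fold, edgeR adjusted p = 0.000447), and 7670 and 8187 CPM with 8AA (0.10, edgeR adjusted p = 0.194). EEF1A1 in KG-1a read 5670 and 5820 CPM untreated, 7684 and 7458 CPM with 8CA (1.32-fold, edgeR adjusted p = 1.5e-05), and 5698 and 5030 CPM with 8AA (-0.10, edgeR adjusted p = 0.126). The eEF1 genes together had medians at 24 h of -0.004 with each drug in MV4-11 and of 0.182 and -0.041 with 8CA and 8AA in KG-1a. All but the KG-1a 8CA value changed sign with library size or upper-quartile scaling. EEF1A2, measured in MV4-11 alone, fell with 8AA at 24 h from 92.11 and 97.65 CPM to 67.77 and 76.47 CPM (-0.42) and read 89.92 and 100.6 CPM with 8CA.

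Several of the rising members have a run of pyrimidines near the start site. Messages of the translation machinery are known for a 5′ terminal oligopyrimidine (TOP) stretch, through which mTORC1 and LARP1 set their translation. For 52 of the 66 members, RefSeq (GRCh38.p14) gave a start site. The longest run of C or T on the gene's strand was taken in the 30 bases from 10 before to 20 after that site. Such a run need not open the message as a TOP stretch does. In EIF4G3 it lies wholly before the start, and in EIF4B after it. A run of at least 8 bases, a minimum chosen after the changes had been seen, was found in 14 of the 52 (26.9%) and in 4215 of 27305 genes (15.4%). The lines below show the window for 9 of those 14, with the longest run in capitals. Apart from EEF1B2, picked for the longest run, they were picked among the members called higher with 8CA. EIF4H and EIF4G3, each with a run of 8, were called lower with 8CA in KG-1a at 24 h (-0.18 and -0.34) and are not shown. EIF3K, with a run of 9, is not shown either. With 8CA at 24 h, EIF3K and EIF4H were called lower in MV4-11 (-0.17 and -0.24), and EIF3K was not called in KG-1a (0.02).
EEF2, chr19:3985444-3985473, minus strand: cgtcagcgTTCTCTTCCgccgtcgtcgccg
EEF1A1, chr6:73521013-73521042, minus strand: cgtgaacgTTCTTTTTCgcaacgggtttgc
EEF1B2, chr2:206159885-206159914, plus strand: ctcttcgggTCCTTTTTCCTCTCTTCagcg
EIF4B, chr12:53006446-53006475, plus strand: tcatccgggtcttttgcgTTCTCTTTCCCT
EIF3F, chr11:7987327-7987356, plus strand: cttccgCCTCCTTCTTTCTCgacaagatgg
EIF3D, chr22:36529147-36529176, minus strand: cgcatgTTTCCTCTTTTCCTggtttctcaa
EIF2S3, chrX:24054946-24054975, plus strand: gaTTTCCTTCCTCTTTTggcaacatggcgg
EIF2A, chr3:150546777-150546806, plus strand: cgagcggTTTCTCTTTCCgggacaacatgg
EIF3M, chr11:32583821-32583850, plus strand: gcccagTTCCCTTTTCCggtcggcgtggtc
Of the 13 members that fell in all 4 comparisons at 24 h, 11 have a window, with longest runs of 2 to 8 bases: EIF4H has 8, and EIF4G2 and EIF3I have 7. Windows of 3 with shorter runs (5, 3 and 2 bases) are shown beside those above.
EIF5A, chr17:7308363-7308392, plus strand: catggtcggcaggagccggcagCCCCTagc
EIF4E, chr4:98929114-98929143, minus strand: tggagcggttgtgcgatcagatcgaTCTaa
EIF2B3, chr1:44986576-44986605, minus strand: gCTgtcagtcagaggcggcgtggagatcgc

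With 8CA at 24 h in KG-1a, 9 of the 14 members with such a run were called higher and 3 lower (median 0.209), while of the 35 without one 2 were higher and 19 lower (median -0.202). In MV4-11 the counts were 8 higher and 2 lower of 14 (median 0.121), against 3 higher and 16 lower of 34 (median -0.141). Over all genes in KG-1a, 29.4% of the 1665 with a run were higher with 8CA at 24 h and 21.7% of the 7932 without. In MV4-11 they were 24.5% of 1683 and 20.2% of 7878. Shares lower over all genes were 21.3% with a run and 26.3% without in KG-1a, and 19% and 25.1% in MV4-11. With 8AA in KG-1a, 2 were higher and 9 lower of 14 (median -0.217), against 2 higher and 24 lower of 35 (median -0.314). In MV4-11 with 8AA, 1 was lower of 14 (median -0.00342), against 16 of 34 (median -0.16), and 0 were higher. Over all genes with 8AA, 12.8% with a run and 17.3% without were lower in MV4-11, and 24.3% and 28.3% in KG-1a. At 8 h in MV4-11, 1 and 2 of 14 were lower with 8CA and 8AA, against 11 and 15 of 34. Over all genes there, 4.58% and 12.5% with a run were lower, and 6.28% and 17.6% without. In KG-1a at 8 h the counts were 1 and 7 of 14, against 0 and 15 of 35. Over all genes there, 0.18% and 17.4% with a run were lower, and 0.202% and 18.7% without. EEF1B2 has the longest run (17 bases) and was an exception with 8CA at 24 h (log2 changes -0.02 in KG-1a and 0.00 in MV4-11). EIF1, with the largest increase after EIF4EBP1, had a run of 7 bases. These counts describe the members and were not tested.

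**Figure D4:**
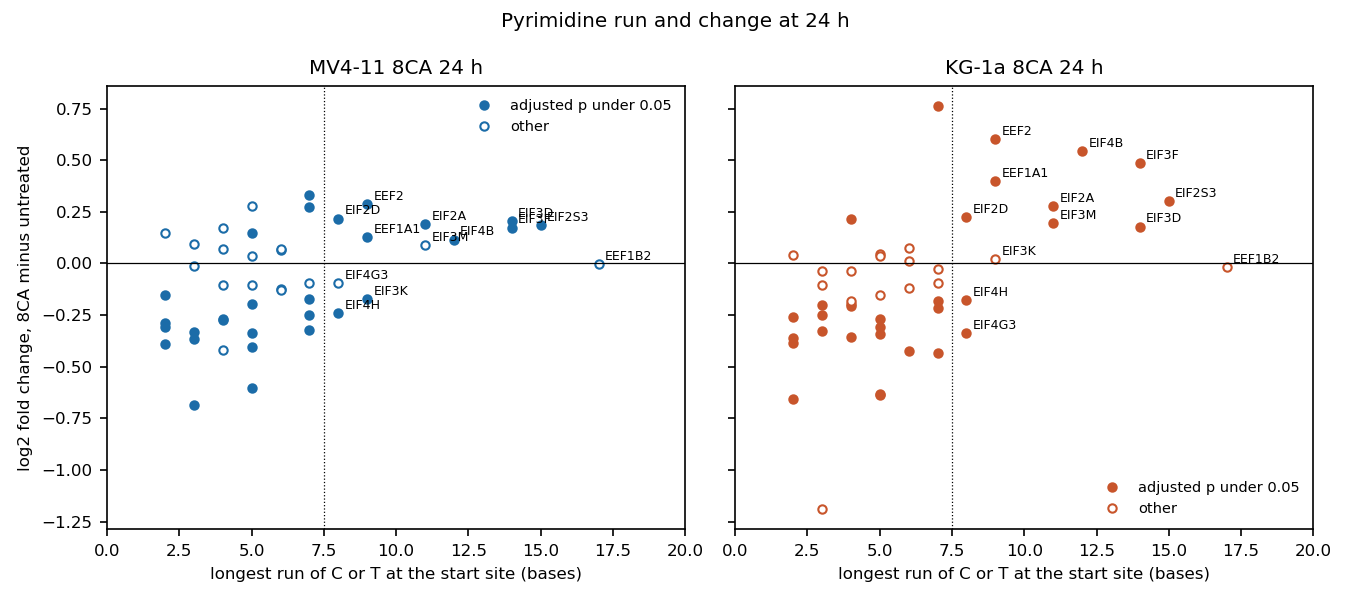
Log2 change with 8CA at 24 h (vertical axis) against the longest run of C or T around the start site in bases (horizontal axis). Members with a RefSeq window are shown, in MV4-11 (left) and KG-1a (right). Filled points have an edgeR adjusted p under 0.05, the dotted line marks the minimum of 8 bases, and EIF1AY is not drawn. In KG-1a, 9 members right of the line were called higher.

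A list of 9 members commonly counted among TOP mRNAs (EEF1A1, EEF1B2, EEF1D, EEF1G, EEF2, EIF3E, EIF3F, EIF3H and EIF4B) was also counted. Of these, 5 (EEF1A1, EEF1B2, EEF2, EIF3F and EIF4B) are also among the 14 with a run, so the 2 counts are not independent. With 8CA at 24 h, 8 of the 9 were higher in KG-1a (median 0.4) and 5 in MV4-11 (median 0.115). These were 88.9% and 55.6%, against 23.4% and 21.2% of all genes. With 8AA, 3 were higher and 1 lower in KG-1a (median 0.016), or 33.3% and 11.1%, against 25.4% and 26.6% of all genes. In MV4-11 the 8AA median was 0.0479, and edgeR called 0 of the 9, as did DESeq2 (2 were higher at an unadjusted p under 0.05). Library size alone called 5 higher and upper-quartile scaling 2, where 19.2% and 17.5% of all genes were higher. EIF4B in KG-1a read 433.4 and 437.8 CPM untreated, 634.7 and 635 CPM with 8CA (1.46-fold, edgeR adjusted p = 1.3e-07), and 532.8 and 487.8 CPM with 8AA (1.17-fold, edgeR adjusted p = 0.000457).

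The 300-base promoters, from 250 before to 50 after the start, were also searched for CACGTG, the E-box bound by MYC and its partners, which reads the same on both strands. It was found in 13 of 52 members (25%) and in 2396 of 27305 genes (8.77%). Windows around the motif, in capitals, are given for 5 members that fell with both drugs in both lines at 24 h.
EIF4G1, chr3:184314450-184314479, plus strand: ggctgtggctgtCACGTGacggggcggggg
EIF4E, chr4:98929341-98929370, minus strand: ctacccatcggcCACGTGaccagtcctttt
EIF4H, chr7:74174145-74174174, plus strand: acgccgccgcacCACGTGggctgcagagcg
EIF4A3, chr17:80147232-80147261, minus strand: ccagttccctttCACGTGacgaagagtgcc
EIF2B3, chr1:44986757-44986786, minus strand: gacagagggacaCACGTGtcgaatgctcct
With 8CA at 24 h, 7 of 12 tested members with the motif were lower in MV4-11 (58.3%), against 11 of 36 without (30.6%). In KG-1a the counts with 8CA were 6 of 12 and 16 of 37 (43.2%). With 8AA they were 5 of 12 and 12 of 36 in MV4-11 (41.7% and 33.3%), and 8 of 12 and 25 of 37 in KG-1a (66.7% and 67.6%). Over all genes, 27.8% with the motif and 23.5% without were lower with 8CA in MV4-11, and 30.1% and 24.8% with 8CA in KG-1a. With 8AA they were 19.7% and 16% in MV4-11, and 36.9% and 26.2% in KG-1a. These shares were not tested. The motif is carried by members that rose as well, EIF3F and EIF4B among them.

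Of the 4 methyltransferase genes, EEF2KMT and EEF1AKMT1 were lower in all 4 comparisons at 24 h. EEF2KMT in KG-1a at 24 h went from 22.74 and 21.92 CPM to 12.26 and 12.37 CPM with 8CA and 9.44 and 10.12 CPM with 8AA (0.552 and 0.437 of untreated, edgeR adjusted p = 2.28e-06 and 6.48e-08). In MV4-11 it went from 22.48 and 24.68 CPM to 13.94 and 16.48 CPM with 8CA (0.635, edgeR adjusted p = 3.16e-05) and 19.17 and 19.45 CPM with 8AA (0.807, edgeR adjusted p = 0.015, lost without 8AA library A or B or untreated library B). EEF1AKMT1, an eEF1A methyltransferase gene, had log2 changes of -0.65, -0.38, -0.59 and -0.55 for 8CA and 8AA in MV4-11, then in KG-1a. EEF1E1, a scaffold of the multi-synthetase complex, reached 6.36 and 6.004 CPM with 8AA in KG-1a, against 12.19 and 10.96 CPM untreated (0.535 of untreated, edgeR adjusted p = 8.29e-06). Of 9 enzymes that make hypusine on eIF5A or diphthamide on eEF2, 8 were lower with 8AA in KG-1a at 24 h (median -0.368), among them DPH2 (-0.89), DOHH (-0.41) and the deoxyhypusine synthase DHPS (-0.34). With 8CA, 3 of the 9 were lower in KG-1a (median 0.00). In MV4-11, 3 were lower and 1 higher with 8CA (median -0.09), and 2 lower and 1 higher with 8AA (median -0.118). With 8AA in KG-1a the share lower was 88.9%, against 26.6% of all genes. The other shares lower were nearer the background: 33.3% with 8CA in KG-1a (24%), and 33.3% and 22.2% in MV4-11 (22.7% and 15.3%).

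Compared directly, and without the untreated libraries, 8AA gave lower levels of many factors than 8CA. The comparison was made in 4 settings. In MV4-11, 4 members were lower and 0 higher with 8AA at 8 h (background 3.7% and 2.96%; 12 and 1 at an unadjusted p under 0.05; DESeq2 4 and 0), and 13 lower and 6 higher at 24 h (background 9.48% and 11.7%). In KG-1a, 23 were lower and 4 higher at 8 h (background 15.8% and 14.7%), and 30 lower and 3 higher at 24 h (background 21.7% and 20.3%). With p-values adjusted jointly over the 4 comparisons by Benjamini-Hochberg, the calls were 8 and 0, 13 and 6, 23 and 4, and 28 and 3. Member medians were -0.0433, -0.0256, -0.102 and -0.156 in that order. In MV4-11 at 24 h, the 13 became 7 without 8AA library A, and the 6 became 1 without 8CA library A, 3 without 8AA library A and 2 without 8AA library B. In KG-1a, the 4 at 8 h became 1 without any of the 4 drug libraries, and at 24 h the 3 became 5 without 8AA library B and the 30 became 37 without 8AA library A.

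EIF4EBP1 in KG-1a at 24 h differed most, by -2.42 on the log2 scale (SE 0.0765, edgeR adjusted p = 9.1e-13), followed by EIF1 (-1.08, SE 0.0568, edgeR adjusted p = 7.56e-10) and EIF2S2 (-1.05, SE 0.0517, edgeR adjusted p = 3.3e-10). EEF2 was lower with 8AA by 0.69 (95% interval -0.805 to -0.568) and EEF1A1 by 0.50 (95% interval -0.608 to -0.388). Higher with 8AA there were EIF1B (0.32), EIF4E2 (0.26) and EIF4EBP2 (0.25). In MV4-11 at 24 h, EIF1 (-0.41), EEF1A2 (-0.40) and EIF2S2 (-0.34) led the lower members, and EEF2KMT (0.35), EEF1AKMT1 (0.27) and EIF5A (0.21) the higher. The EEF1AKMT1 call was lost with DESeq2, with no filter and without any of its 4 libraries, and the EEF2KMT call without either 8AA library or 8CA library A. EIF2S2 was among the lower members in all 4 settings, with -0.25 at 8 h in MV4-11 and -0.54 at 8 h in KG-1a. For other members the data bound the difference between the drugs. Of those with no call, the 95% interval of the difference stayed within 0.3 in either direction for 48 of 57 and 34 of 42 in MV4-11 (8 and 24 h), and for 27 of 35 and 20 of 29 in KG-1a. EIF2AK4 (-0.05, -0.147 to 0.037), EEF2K (-0.01, -0.109 to 0.0978) and EIF2B3 in KG-1a at 24 h were of this kind.

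**Figure D5:**
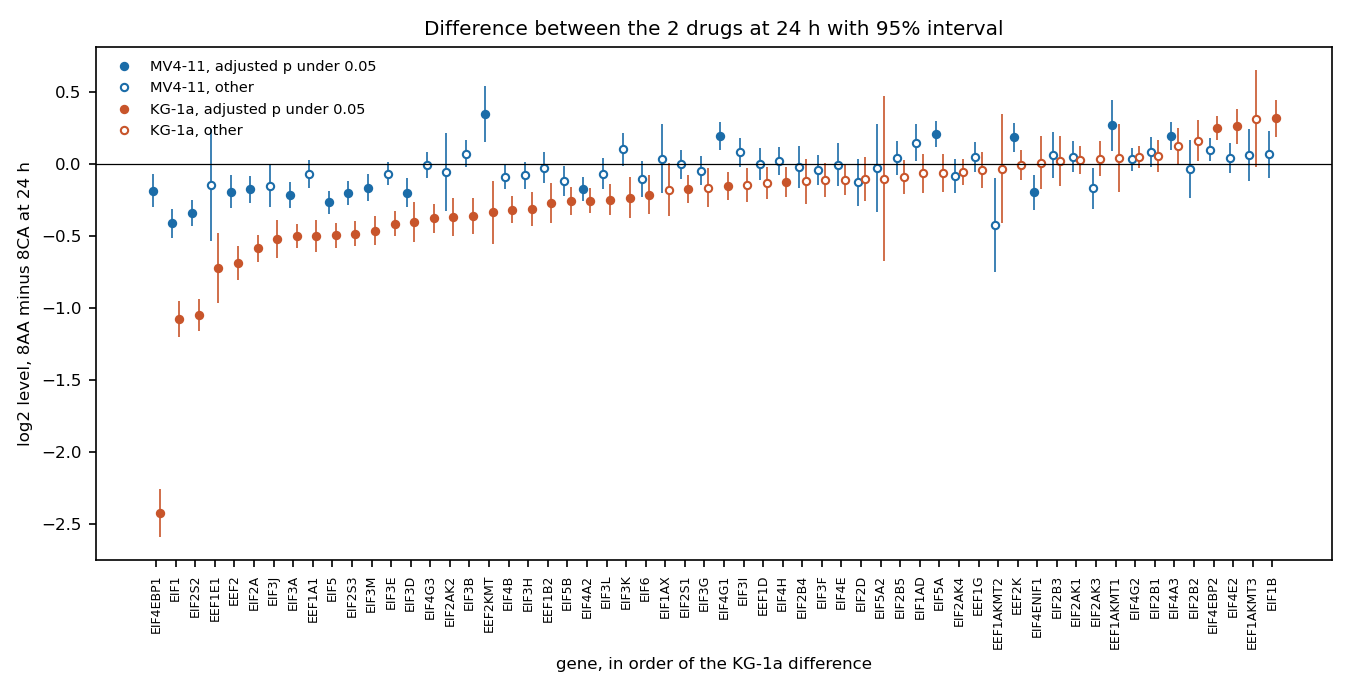
Log2 level with 8AA minus that with 8CA at 24 h, with 95% intervals, for the members tested in both lines except EIF3CL and EIF5AL1, ordered by the KG-1a value; blue is MV4-11, orange KG-1a, and filled points have an edgeR adjusted p under 0.05. EIF4EBP1 in KG-1a lies at -2.42, far from its MV4-11 value, and most KG-1a points lie below 0.

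In KG-1a with 8CA, 28 of 62 members differed between their 24 and 8 h changes (background 23.9%). The other counts, also of 62, were near or below the background. They were 9 with 8CA in MV4-11 (background 16.3%), 2 with 8AA in MV4-11 (background 4.63%) and 11 with 8AA in KG-1a (background 18.3%). The last count ran from 6 (without 8AA 8 h library A or B, or untreated 24 h library A) to 25 and 20 without 8AA 24 h libraries A and B. In KG-1a with 8CA, EIF4EBP1 (1.04, SE 0.102, edgeR adjusted p = 5.25e-06), EEF2 (0.60) and EIF1 (0.56) gained most, and EIF2B3 and EEF1AKMT1 (-0.62 each) lost most along with EIF5A. EIF4A2, a helicase gene, gained 0.38 in MV4-11 with 8CA (SE 0.055, edgeR adjusted p = 0.000297). EIF4G3 recovered in MV4-11 with 8AA, from -0.46 at 8 h to -0.10 at 24 h (difference 0.35, SE 0.0629, edgeR adjusted p = 0.0065), but stayed at -0.75 and -0.72 in KG-1a.

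Between the lines, 0 of 63 members differed in their change with 8CA at 8 h (edgeR, background 1.15%). There, 8 had an unadjusted p under 0.05, and DESeq2 called 2. The counts were 16 with 8CA at 24 h (background 11.2%), 8 with 8AA at 8 h (background 11.1%) and 28 with 8AA at 24 h (background 22.3%). The count with 8AA at 8 h was near the background. The 16 became 9 without MV4-11 untreated library B or KG-1a 8CA library A, and 10 without either KG-1a untreated library. The 8 became 4 without KG-1a untreated library B and 5 without either KG-1a 8AA library. The 28 became 18 without MV4-11 8AA library B or without KG-1a 8AA library B. EIF4EBP1 differed most with 8CA at 24 h (MV4-11 minus KG-1a -1.35, SE 0.0947, edgeR adjusted p = 8.42e-10), and in the other direction with 8AA (0.89, SE 0.0991, edgeR adjusted p = 6.45e-07). EEF2KMT (0.91) and EIF4G3 (0.63) fell less in MV4-11 with 8AA, and EIF1B, at -0.20 in MV4-11 without a call and 0.28 in KG-1a, gave a line difference of -0.46 (SE 0.097, edgeR adjusted p = 0.00102).

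Genes of other translation steps were also called. Of 7 termination and ribosome-recycling genes tested, 3 were lower with each drug in MV4-11 at 24 h, and 5 and 6 with 8CA and 8AA in KG-1a (medians -0.125, -0.155, -0.279 and -0.376). The shares lower were 42.9%, 42.9%, 71.4% and 85.7% (background 22.7%, 15.3%, 24% and 26.6%). The release factor genes ETF1 and GSPT1 were lower in all 4 comparisons and reached -0.69 and -0.70 with 8AA in KG-1a, where the recycling ATPase ABCE1 reached -0.75. PELO, which rescues stalled ribosomes, was lower in all 4 (-0.63, -0.39, -0.35 and -0.38). Of the poly(A)-binding and helper genes, 4 were lower and 2 higher with 8CA in MV4-11 (of 11), and 5 lower with 8AA. The KG-1a counts (of 10) were 3 lower and 3 higher for 8CA, then 6 lower and 2 higher for 8AA. CDC123, the eIF2 assembly factor, was lower throughout (-0.24, -0.26, -0.47 and -0.55), and PDCD4, an inhibitor of eIF4A, was higher in KG-1a with both drugs (0.78 and 0.75).

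Among 11 signalling genes upstream of initiation, PPP1R15A rose in 3 of the 4 comparisons at 24 h. It encodes GADD34, the phosphatase subunit that removes the phosphate from eIF2 alpha. Its 24 h changes were 0.32 and -0.02 with 8CA and 8AA in MV4-11, and 1.37 and 0.43 in KG-1a, all called but the second. In MV4-11, 8CA lowered 3 genes of that list and raised 3, and 8AA lowered 2. In KG-1a, 8CA lowered 5 and raised 2, and 8AA lowered 6 and raised 2. RPS6KB2, an S6 kinase gene, was lower in all 4 (-0.28, -0.25, -0.48 and -0.34). Of 9 mitochondrial translation factors, 3 were lower in MV4-11 with each drug, with 1 higher with 8CA, and for KG-1a the counts lower were 4 (8CA) and 6 (8AA), with 2 higher with 8AA. GFM1 and TSFM, mitochondrial elongation factors, were lower in all 4, by -0.72 and -0.42 with 8AA in KG-1a, while MTIF3 (0.43) and MTRF1 (0.33) were higher there. Against all genes at 24 h (lower in 22.7% and 15.3% with 8CA and 8AA in MV4-11 and in 24% and 26.6% in KG-1a), the shares lower were 27.3%, 18.2%, 45.5% and 54.5% for the signalling genes. They were 33.3%, 33.3%, 44.4% and 66.7% for the mitochondrial factors, and 36.4%, 45.5%, 30% and 60% for the poly(A)-binding and helper genes. The signalling shares in MV4-11 and the helper share with 8CA in KG-1a are near the background.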

How the data were processed

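Total RNA was taken with the QIAGEN RNeasy Micro Kit from MV4-11 and KG-1a cells and sequenced. The authors deposited raw read counts per gene, and their processing notes name Trimmomatic, STAR 2.6.0, HTSeq 0.11.1, edgeR and the builds hg19 and hg38. Of 22414 symbols shared with GENCODE 29, 3170 (14.1%) overlapped their GRCh38 span, so the gene positions in the table, quoted as table positions, are not GRCh38, while the printed sequences are RefSeq GRCh38.p14. Counts were tested here with edgeR 4.0.16 (R 4.3.3; quasi-likelihood test, TMM scaling, filterByExpr with a minimum count of 10), fitted per line over 12 libraries, or over 24 for line contrasts, with p-values adjusted by Benjamini-Hochberg across every gene in the fit (12800 in MV4-11, 12711 in KG-1a, 14055 in both) and a threshold of 0.05 for a call. CPM and RPKM were computed from the same counts with TMM factors over 24 libraries and the table's gene lengths. DESeq2 1.42.0, other scalings, no filter, a replicate block and leaving out each library were alternatives. The pipeline was tested on simulated data. Whether counting used strand is not given in the sources used here. Without it, overlapping antisense genes cannot be told apart.

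The members, lists and motifs were chosen with earlier results of these data known. EIF4EBP1, EIF4EBP2 and EIF4EBP3 were kept, since their ending names a binding protein and not a pseudogene. Printed values were drawn mainly from 3 kinds of members, and not every such value is printed. These were the regulators (EIF2AK genes, EEF2K, EIF4EBP genes, EIF4ENIF1, EIF4E) and the 3 lowest and 3 highest called members of each comparison. The last kind was members called alike in all 4 comparisons at 24 h or oppositely with both drugs. Other named members illustrate a complex and were chosen after their values were seen. EIF1AY was counted without values. Samples were grouped by their titles and treatments. The letters A and B were not treated as pairing the libraries, since the deviations of same-lettered libraries did not correlate in every pair of groups.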

Additional observations from a re-analysis of the deposited data

Results flagged for a closer look

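The changes below differed between 2 hours or 2 lines by a test of the difference itself in edgeR (adjusted p under 0.05), and are log2 differences. Named are the 3 lowest and 3 highest per comparison, where so many were called.

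Subtracting the 8 h change from the 24 h change, the difference with 8CA in MV4-11 was 0.258 for EIF3A, 0.3 for EIF1 and 0.383 for EIF4A2, and -0.576 for EIF5AL1, -0.52 for EEF1AKMT1 and -0.432 for EIF5A. With 8AA in MV4-11 it was 0.353 for EIF4G3 and -0.415 for EEF1A2. With 8CA in KG-1a it was 0.563 for EIF1, 0.598 for EEF2 and 1.04 for EIF4EBP1, and -0.624 for EIF2B3, -0.624 for EEF1AKMT1 and -0.576 for EIF5A. With 8AA in KG-1a it was -0.897 for EIF4EBP1, -0.567 for EIF5A and -0.54 for EEF1E1.

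Subtracting the KG-1a change from the MV4-11 change, the difference with 8CA at 24 h was 0.371 for EIF2B3, 0.392 for EIF2B2 and 0.513 for EIF2AK4, and -1.35 for EIF4EBP1, -0.444 for EIF2S2 and -0.408 for EIF4B. With 8AA at 8 h it was 0.264 for EIF3D, 0.334 for EIF4G3 and 0.423 for EIF2AK4, and -0.359 for EIF1B. With 8AA at 24 h it was 0.634 for EIF4G3, 0.885 for EIF4EBP1 and 0.905 for EEF2KMT, and -0.463 for EIF1B, -0.22 for EIF3F and -0.18 for EIF4B. Several of these calls were fragile. The EIF3D line difference with 8AA at 8 h was lost with every other scaling, DESeq2, no filter and the replicate block, and without 7 of its 8 libraries. With 8AA at 24 h, EIF3F was lost with the block and without 6 libraries, and EIF4B without 6. With 8CA at 24 h, EIF2B3 was lost with DESeq2, with no filter and without 7 libraries, and EIF2B2 without 7. EIF1B with 8AA at 8 h was lost without 4. Among the time differences, EEF1A2 was lost without any of 5 libraries, EEF1E1 with DESeq2 and without 3, and EIF5AL1 with DESeq2 and without 3.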

How the results depend on the processing

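Over 218 values of 45 named members, no called value changed sign in any alternative, while some values near 0 without a call did. Calls were lost in 121 cases when 1 library was left out (3 gained), 13 with DESeq2, 10 with library size alone, 5 with upper-quartile scaling, 4 with no filter, 2 with the replicate block and 1 with DESeq2 size factors. No scaling moved the median of all genes by over 0.1; the largest shift was 0.0946 (library size alone, KG-1a 8AA 24 h). With 2 libraries per group, small changes are near the limit of detection.

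Counts of called members that moved by over 1.5 times were as follows. Increases with 8CA in MV4-11 at 8 h (0) became 2 with library size alone, upper quartile, no filter and the replicate block. Increases with 8AA there (0) became 7 with library size alone or upper quartile and 5 with no filter or the block. In KG-1a with 8CA at 8 h, decreases (1) became 0 with library size alone, 3 with no filter, 2 with DESeq2 and 2 with the block, and increases (0) became 2 with no filter. Increases with 8AA in KG-1a at 8 h (3) became 7 with library size alone. Increases with 8AA at 24 h in MV4-11 (1) became 9, 4, 4, 0 and 5 with library size alone, upper quartile, no filter, DESeq2 and the block, and in KG-1a (5) 8 with library size alone or upper quartile. Members lower with 8AA than 8CA in MV4-11 at 8 h (4) became 10 with the block, and members higher with 8AA in KG-1a at 24 h (3) became 6 with library size alone and 5 with upper quartile. Time differences in MV4-11 became 14 with the block for 8CA (9) and 4 for 8AA (2). Line differences with 8CA at 8 h (0) became 1 with library size alone, 3 with no filter and 2 with DESeq2, and with 8AA at 8 h (8) became 4 with no filter.

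Leaving out 1 library at a time gave 4 to 12 decreases and 0 to 1 increases with 8CA in MV4-11 at 8 h, 0 to 3 increases with 8AA there, 0 to 0 decreases with 8CA in KG-1a at 8 h and 17 to 19 decreases with 8AA. At 24 h it gave 8 to 10 increases with 8CA and 0 to 2 with 8AA in MV4-11, and 3 to 8 with 8AA in KG-1a. Between the drugs it gave 7 to 12 lower and 1 to 5 higher in MV4-11 at 24 h, and 1 to 1 higher at 8 h and 3 to 5 at 24 h in KG-1a. Time differences numbered 5 to 9 and 1 to 2 with 8CA and 8AA in MV4-11 and 6 to 25 with 8AA in KG-1a, and line differences 0 to 1, 9 to 13, 4 to 7 and 18 to 31 (8CA 8 h, 8CA 24 h, 8AA 8 h, 8AA 24 h). The cause was not tested.

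The letters A and B did not meet the bar for pairing, every correlation over 0.1: over 15 pairs of groups, the median correlation of the deviations was 0.0784 (MV4-11; 6 pairs over 0.1) and 0.0244 (KG-1a; 2 pairs over 0.1), and the replicate block gave the counts above, among them 10 for members lower with 8AA than 8CA in MV4-11 at 8 h.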
